A study of Mus musculus with 6 samples.

Results

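The proteasome is the protease complex that degrades proteins tagged with ubiquitin. Its core particle is a barrel of stacked alpha and beta rings, with the proteolytic sites on 3 kinds of beta subunit inside. A regulatory particle caps the barrel, and its base holds the ATPases that unfold substrates while its lid removes ubiquitin. Interferon-induced beta subunits can replace the catalytic ones to form the immunoproteasome. Embryonic stem cells are known for high proteasome activity.

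Genes of the complex were taken by name, as every gene whose single symbol in the array annotation begins with Psm, a letter from a to g and a digit. This found 49 of the 18193 named genes, read by 103 of the 45037 probe sets. By role they were 8 alpha ring genes, 7 constitutive beta ring genes, 4 genes of the immunoproteasome and thymoproteasome, 9 of the base, 8 of the lid, 7 assembly factors, 4 activators and inhibitors, and 2 genes, Psmc3ip and Psme3ip1, whose names match although they encode partners of a subunit and not parts of the complex. Psme2, a subunit of the activator that Psme1 forms, was not counted because its probe set carries a pair of symbols.

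The cells were mouse embryonic stem cells (mESCs) whose Dicer alleles are floxed, grown on gelatin with serum and the cytokine LIF. The Dcr WT group received GFP alone and kept intact Dicer. The Dcr KO group received GFP and Cre recombinase to delete Dicer, the enzyme that makes mature miRNAs. Both groups were profiled 5 days after transfection as polyclonal cultures. The study describes the cells by then as mostly null for Dicer, with most miRNAs gone, so the loss may not have been complete. Each group held 3 arrays, which the study calls biological triplicates, and no group received Cre without the deletion, so Cre and the loss of Dicer cannot be told apart. The deposited values are log2 expression from GCRMA, a background correction and normalization method. A gene's value is the mean log2 level of its probe sets, and 8782 genes with a mean of at least 4 were tested.

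Dicer1 was lower on each Dcr KO array than on each Dcr WT array by both of its probe sets (5.89 to 6.76 against 6.49 to 8.51 over both). The 2 probe sets read 27.9% and 56.5% of the Dcr WT level (limma over probe sets, adjusted p = 0.0138 and 0.0908). Of 8 markers of embryonic stem cells, all 8 were measured above the minimum and none was called by limma (before adjustment, 3 were higher and 2 lower at p under 0.05, a threshold that 14.7% of all genes tested passed as higher and 17.3% as lower). Of 8 fibroblast markers 2 lay above the minimum, with log2 means under 4.4 in both groups, and of 6 immune cell markers only Cd68 did. Among the 6 fibroblast markers under the minimum, Col3a1 and Postn were higher on every Dcr KO array than on any Dcr WT array (log2 differences 1.22 and 0.72), and Col1a2 and Thy1 were lower on every Dcr KO array (-0.71 and -0.62). Their part in the results below was not tested. Dcr WT replicate 3 stood apart from the other arrays in many proteasome genes, and values without it are given where it matters. It was singled out because it was high in many of these same genes. Leaving it out therefore tends to raise their differences and is no separate test.

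Most proteasome mRNAs in Dcr KO mESCs lay close to their levels in Dcr WT mESCs. By limma, with an adjusted p under 0.05 as the threshold, 1 of the 47 members tested was higher in Dcr KO, 2 were lower and 44 were not called. Among all genes tested 13.3% were called, 6.91% higher and 6.42% lower. The higher gene was Psmf1, which encodes an inhibitor of the core particle. The lower genes were Psmg3, which encodes an assembly chaperone, and Psmc3ip, which is no part of the complex. The median log2 difference was -0.10 over the members and -0.02 over all genes tested, and 36 of the 47 had a lower mean in Dcr KO, against 53.1% of all genes. Without Dcr WT replicate 3 the median of the members was -0.07, and with each array left out in turn it ran from -0.1075 to -0.068.

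**Figure D1:**
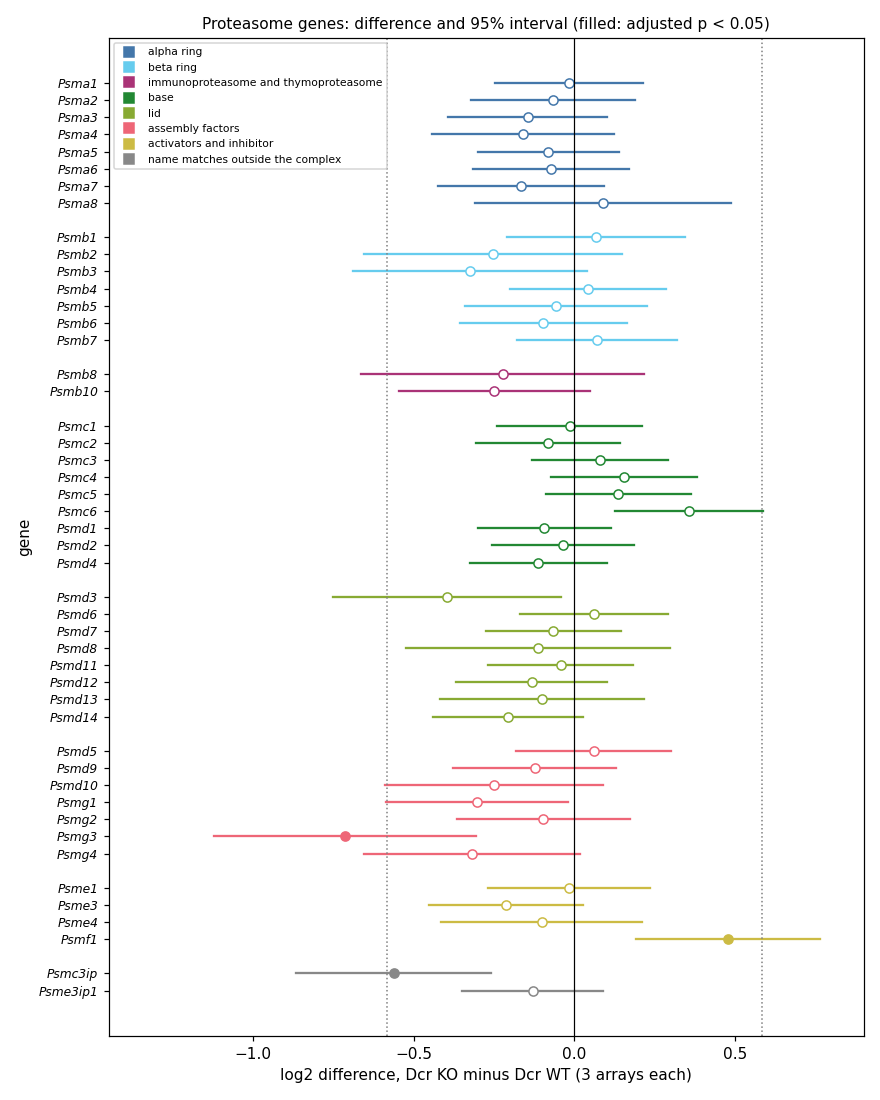
Dcr KO minus Dcr WT on the log2 scale for the 47 tested genes (points) with the 95% interval from limma (bars), grouped by role; filled points passed an adjusted p of 0.05 and dotted lines mark a 1.5-fold change. The 3 filled points are Psmg3, Psmf1 and Psmc3ip, and 28 of the 32 intervals of the alpha ring, beta ring, base and lid lie between the dotted lines.

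None of the 32 genes for subunits of the alpha ring, beta ring, base and lid, counted with Psma8 of the testis form, was called by limma. Before adjustment, 1 was higher and 1 lower at p under 0.05, against 14.7% and 17.3% of all genes tested. Their differences ran from -0.40 for Psmd3 to 0.36 for Psmc6, which is 76.0% to 128% of the Dcr WT level, with a median of -0.07 (-0.01 without Dcr WT replicate 3). The differences spread less than those of the array as a whole, with an SD of 0.14 across the 32 genes and 0.40 across all genes tested. In 27 of the 32 the difference was under 0.2 in size, against 48.4% of all genes. The 95% interval stayed within a 1.5-fold change either way in 28 of the 32, or 87.5%, against 59.2% of all genes. It stayed within a 2-fold change in all 32. Within 1.2-fold, the study's own cutoff for up-regulation, it stayed in only 3 of the 32, or 9.4%, against 3.5% of all genes. Those 3 were Psma1, Psmc1 and Psmd2, whose values average a bright probe set with dim ones under the minimum. The bright ones had log2 means of 12.45, 11.06 and 11.51, and the dimmest 2.33, 1.27 and 1.82. Such averaging can shrink a difference and its interval, so the 9.4% is no sign of tighter levels. These subunits were bright on the array: 27 of the 32 had a probe set with a mean log2 level of at least 11. Among bright genes (mean of at least 8) the interval stayed within 1.5-fold in 67.5% of 3049 genes and in 20 of the 24 subunits that reached that level, or 83.3%. Within 1.2-fold it stayed in 4.4% of the 3049 genes and in 0 of the 24 subunits, so smaller changes in these subunits remain possible.

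**Figure D2:**
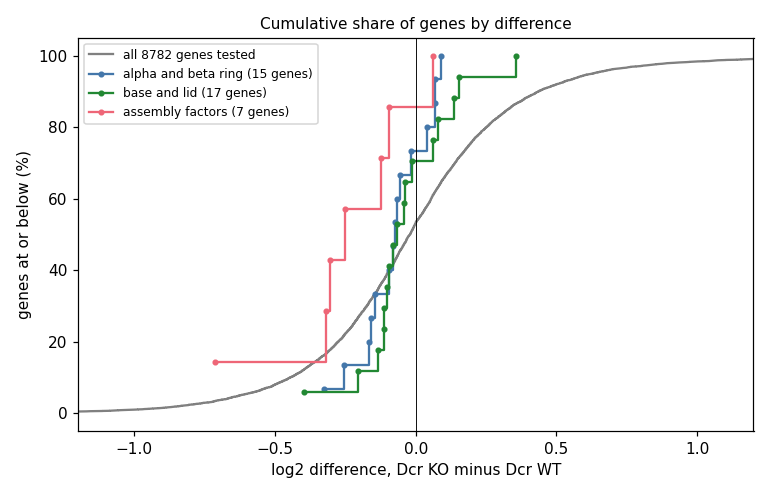
Cumulative share of genes (vertical axis, percent) by log2 difference, Dcr KO minus Dcr WT (horizontal axis), for all 8782 genes tested and for 3 groups of proteasome genes; points are single genes. The curves of the rings and of the base and lid rise more steeply around 0 than that of all genes, and the curve of the assembly factors lies to the left, with a median of -0.25.

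The alpha ring forms the gate and the outer walls of the core particle. Its 8 genes differed by -0.17 (Psma7) to 0.09 (Psma8), and 7 of the 8 had a lower mean in Dcr KO. None was called by limma, and 0 had p under 0.05 before adjustment. The 95% interval of each of the 8 stayed within 1.5-fold. Psma2 had log2 levels of 12.56, 12.60 and 12.82 on the Dcr WT arrays and 12.50, 12.65 and 12.63 on the Dcr KO arrays, so the groups overlapped. Psma8 encodes the alpha subunit of the testis form, and it was measured at 7.53, 7.33 and 7.99 in Dcr WT and 7.59, 7.83 and 7.70 in Dcr KO.

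In the beta ring the 3 constitutive catalytic subunits did not differ beyond the spread between arrays. Psmb5, which encodes the subunit with chymotrypsin-like activity, had log2 levels of 11.36, 11.29 and 11.54 in Dcr WT and 11.21, 11.29 and 11.52 in Dcr KO (95% interval of the difference -0.34 to 0.23). Psmb6, the caspase-like subunit, differed by -0.10 (95% interval -0.36 to 0.16). Psmb7, the trypsin-like subunit, differed by 0.07 (95% interval -0.18 to 0.32). All 3 intervals exclude a 1.5-fold change. The largest difference in the ring was in Psmb3, a structural subunit, with 11.00, 11.07 and 11.54 in Dcr WT and 10.76, 10.98 and 10.89 in Dcr KO. All 3 Dcr KO values lay below all Dcr WT values, but only in the average, as the groups overlapped in each of its probe sets. The difference of -0.33 did not pass (adjusted p = 0.195 from limma, standard error 0.16). Without Dcr WT replicate 3 it was -0.16, smaller than that of Psmb2 (-0.24). Groups that did not overlap, with Dcr KO lower, were seen in 21.2% of all genes tested and in 8 of the 47 members. Psmb2 was read lowest on Dcr KO replicate 1 (8.93, against 9.33 to 9.71 elsewhere) and differed by -0.25.

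Dcr WT replicate 3 was the highest array for most of the core. Of the 15 alpha and beta ring genes, 10 had their highest value there, against 22.9% of all genes tested, and each of the 15 lay above its own mean over the 6 arrays. On average the 8 alpha ring genes stood 0.16 above their own mean on that array and the 7 beta ring genes 0.20 above. Without it the median difference of the 15 genes went from -0.07 to -0.01. That of the 7 beta ring genes went from -0.057 to 0.015, while that of the 8 alpha ring genes went only from -0.077 to -0.075. Because the array was picked for being high in these genes, a move upward was built in. The base shared the pattern less, with an average deviation of 0.01 on that array and 66.7% of its genes above their own mean. Its median still went from -0.015 to 0.038 without that array. The part of Dcr WT replicate 3 in the small downward shift of the core was not tested.

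**Figure D3:**
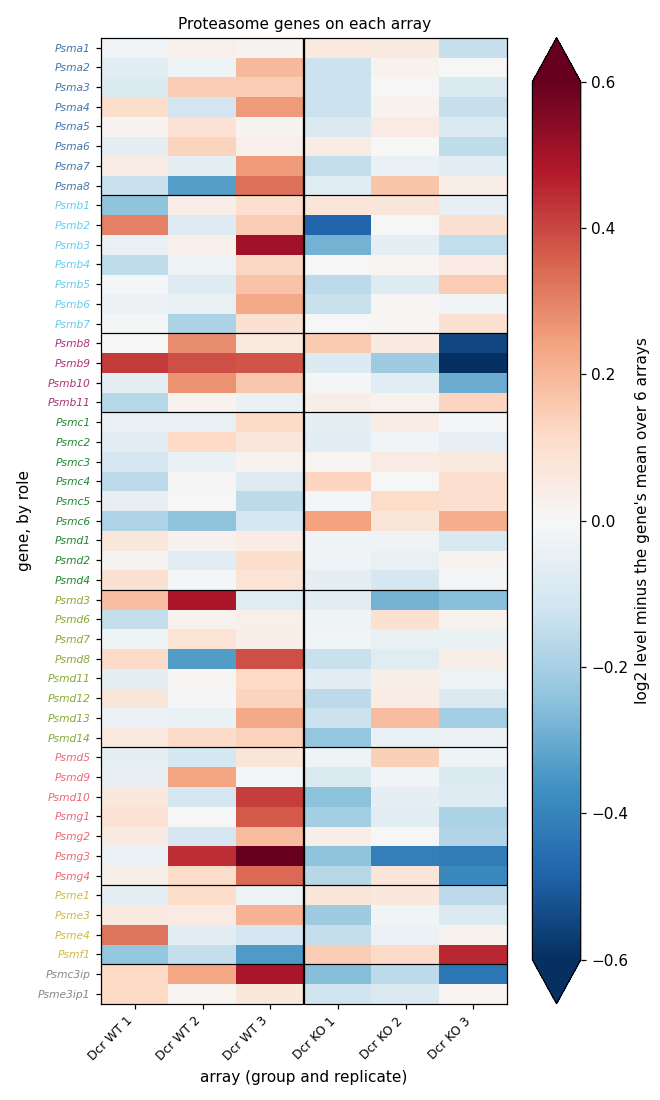
Log2 level of each of the 49 genes on each of the 6 arrays, as the deviation from the gene's own mean over the arrays (colour scale, log2; cut at -0.6 and 0.6), with genes grouped by role and the vertical line between the groups. The column of Dcr WT replicate 3 is red through most of the alpha and beta rings, and Psmb8, Psmb9 and Psmb10 are bluest on Dcr KO replicate 3.

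The base carries a ring of 6 ATPases, Psmc1 to Psmc6, and the scaffold and ubiquitin-binding subunits Psmd1, Psmd2 and Psmd4. None of the 9 genes was called by limma, and before adjustment 1 was higher and 0 lower at p under 0.05 (14.7% and 17.3% of all genes). The ATPases had a median difference of 0.11 and the whole base one of -0.02. Psmc6 came closest to a call. Its log2 levels were 10.20, 10.14 and 10.27 in Dcr WT and 10.62, 10.45 and 10.60 in Dcr KO, a difference of 0.36 with no overlap between groups (adjusted p = 0.0530 from limma, standard error 0.10). Groups that did not overlap with Dcr KO higher made up 17.7% of all genes tested and were seen in 2 of the 47 members, Psmc6 and Psmf1.

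The 3 probe sets of Psmc6 did not move together. The brightest had 12.25, 12.28 and 12.41 in Dcr WT and 12.23, 12.30 and 12.26 in Dcr KO, a difference of -0.05. The middle one had 9.96 to 10.06 in Dcr WT and 10.31 to 10.45 in Dcr KO, without overlap, but its difference of 0.36 did not pass (limma over probe sets, adjusted p = 0.0795). The dimmest had 8.28, 8.18 and 8.41 in Dcr WT and 9.30, 8.75 and 9.09 in Dcr KO, and its difference of 0.76 passed (limma over probe sets, adjusted p = 0.0409). The difference of the gene thus rests on its dimmer probe sets, and with the brightest alone it was -0.05. Which transcripts of Psmc6 each probe set reads was not analysed here. Among the other ATPases, Psmc4 differed by 0.15 and Psmc5 by 0.14, and Psmc1 by -0.02 (adjusted p = 0.314, 0.367 and 0.931 from limma).

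The scaffold subunit Psmd1 varied little between arrays of a group. It had 11.96, 11.92 and 11.94 in Dcr WT and 11.87, 11.87 and 11.80 in Dcr KO, so that all Dcr KO values lay lower, by 0.09 on average (adjusted p = 0.505 from limma). The ubiquitin receptor Psmd4 had a difference of -0.11 and groups that did not overlap (adjusted p = 0.435 from limma). Its value averages probe sets that disagreed, and 1 of them lay under the minimum. The brightest differed by -0.23 without overlap and the next by -0.04 with overlap. The intervals of Psmd1 and of the averaged Psmd4 both stayed within 1.5-fold.

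The lid contains the deubiquitinase Psmd14 and scaffold subunits around it. None of its 8 genes was called by limma, and before adjustment 0 were higher and 1 lower at p under 0.05 (14.7% and 17.3% of all genes). Of the 8, 7 had a lower mean in Dcr KO (median difference -0.11, and -0.04 without Dcr WT replicate 3). Psmd3, a scaffold subunit of the lid, had 9.42, 9.73 and 9.17 in Dcr WT and 9.18, 8.96 and 8.99 in Dcr KO. Dcr WT replicate 3 was the lowest Dcr WT array for Psmd3 and the only one to overlap the Dcr KO arrays. Leaving it out would thus move this difference further from 0, unlike the median. The difference of -0.40 did not pass (adjusted p = 0.122 from limma, standard error 0.15). Psmd14 had 11.83, 11.89 and 11.91 in Dcr WT and 11.54, 11.73 and 11.74 in Dcr KO. Its groups did not overlap, and the difference of -0.21 did not pass either (95% interval -0.44 to 0.03, adjusted p = 0.199 from limma). Psmd8 was the least even, with 10.48 to 11.20 over the Dcr WT arrays.

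Assembly factors are chaperones that build the particle and leave it, or are degraded, when it is complete. Psmg1 to Psmg4 guide the alpha ring, and Psmd5, Psmd9 and Psmd10 guide the base. Of the 7 genes, 1 was lower and 6 were not called, where 6.42% of all genes tested were called lower. Before adjustment 0 were higher and 2 lower at p under 0.05, against 14.7% and 17.3% of all genes. The median difference of -0.25 was the lowest of any role within the complex that had over 2 tested genes. Psmg3 had log2 levels of 5.68, 6.16 and 6.38 in Dcr WT and 5.48, 5.31 and 5.30 in Dcr KO, which leaves 61.0% of the Dcr WT level (log2 difference -0.71, adjusted p = 0.0373 from limma, standard error 0.18). The groups did not overlap.

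The Psmg3 value averages a bright and a dim probe set. The bright one had 8.03, 8.43 and 8.88 in Dcr WT and 7.27, 7.27 and 7.02 in Dcr KO, a difference of -1.26 (limma over probe sets, adjusted p = 0.0241). The dim one lay under the minimum, at 3.33 to 3.89 over all 6 arrays, and differed by -0.17. With single arrays left out, the averaged gene passed only without Dcr WT replicate 1 (adjusted p = 0.0210 from limma) and did not pass without any of the other 5 (highest adjusted p = 0.108), while its difference stayed between -0.91 and -0.56.

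The other assembly factors were not called. Psmg1, which pairs with Psmg2, had 11.01, 10.92 and 11.29 in Dcr WT and 10.72, 10.86 and 10.73 in Dcr KO, with no overlap (log2 difference -0.30, adjusted p = 0.136 from limma). Psmg4, which pairs with Psmg3, had 4.13, 4.21 and 4.44 in Dcr WT and 3.93, 4.17 and 3.71 in Dcr KO, overlapping (log2 difference -0.32, adjusted p = 0.173 from limma). This too averages a bright and a dim probe set, and the bright one had 6.36, 6.39 and 6.76 in Dcr WT and 5.88, 6.37 and 5.80 in Dcr KO (difference -0.49, limma over probe sets, adjusted p = 0.160). Psmg2 differed by -0.10. Among the base chaperones, Psmd10 had 8.53, 8.36 and 8.88 in Dcr WT and 8.22, 8.41 and 8.39 in Dcr KO (log2 difference -0.25, adjusted p = 0.277 from limma). Psmd5 differed by 0.06 and Psmd9 by -0.12. Dcr WT replicate 3 was again high, with the 7 genes 0.29 above their own mean on average, and without it the median of the list was -0.16.

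**Figure D4:**
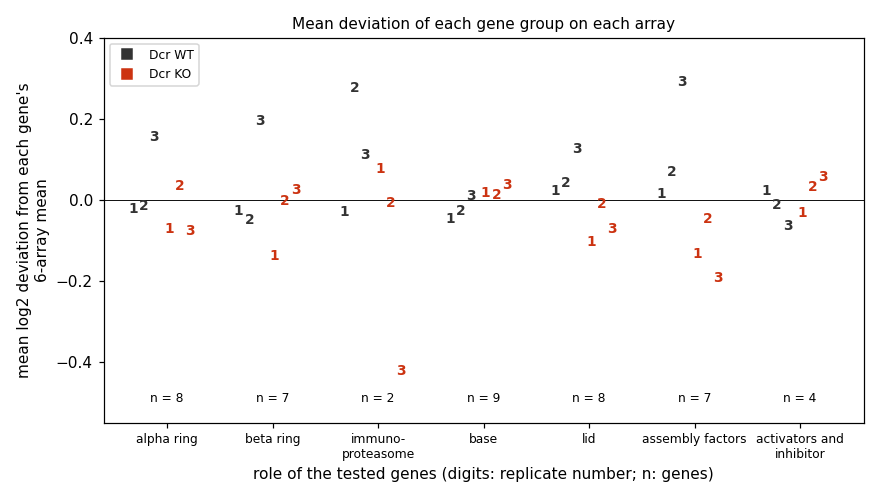
Mean log2 deviation of the tested genes of each role from their own 6-array mean, for each array (digits are replicate numbers; dark, Dcr WT; red, Dcr KO; n is the number of genes). Dcr WT replicate 3 is highest in the alpha ring, beta ring, lid and assembly factors, and Dcr KO replicate 3 is lowest in the immunoproteasome genes, at -0.42.

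The activators open the gate of the core particle without ATP, and Psmf1 encodes an inhibitor that binds the core particle. Psmf1 had log2 levels of 5.65, 5.74 and 5.54 in Dcr WT and 6.03, 5.995 and 6.33 in Dcr KO, which is 139% of the Dcr WT level (log2 difference 0.48, adjusted p = 0.0426 from limma, standard error 0.12). The groups did not overlap. Its 4 probe sets differed more from each other than those of any other member, over the probe sets above the minimum. The brightest had 8.04, 8.01 and 8.07 in Dcr WT and 7.98, 7.96 and 7.94 in Dcr KO, slightly lower in Dcr KO (difference -0.08, limma over probe sets, adjusted p = 0.617). The second had 6.65, 7.21 and 6.89 against 7.56, 7.17 and 7.73 (difference 0.57, adjusted p = 0.126). The third had 5.76, 5.47 and 5.36 against 6.30, 6.31 and 6.98, and alone passed (difference 1.00, adjusted p = 0.0412). The fourth lay under the minimum. The call of Psmf1 was lost without any single array (adjusted p from 0.0626 to 0.119 from limma), and with the brightest probe set in place of the average its sign turned.

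**Figure D5:**
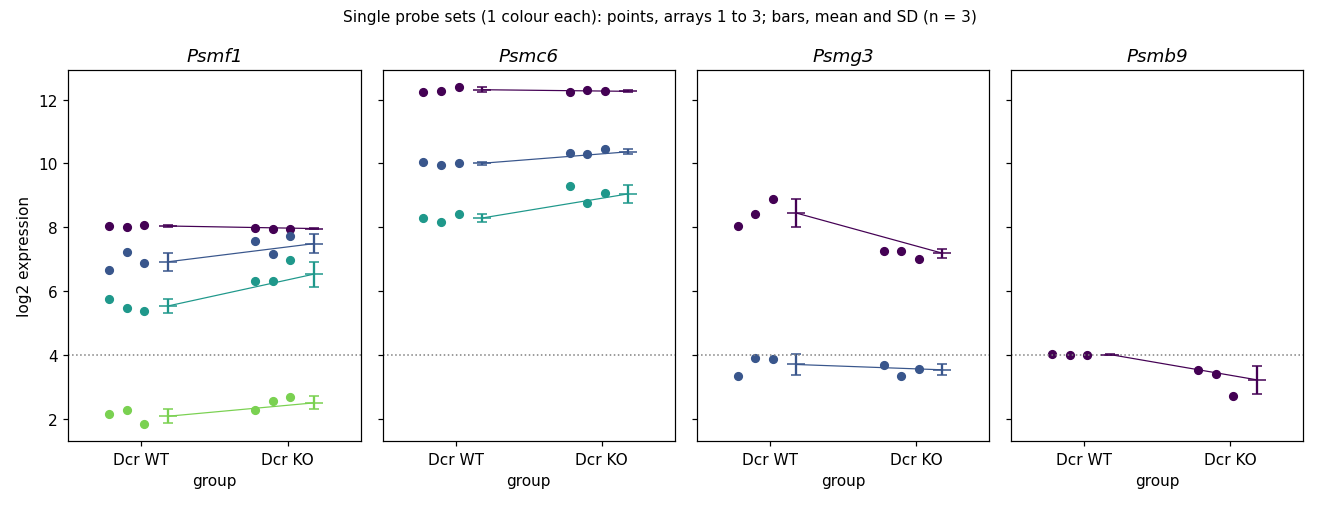
Log2 expression of every probe set of Psmf1, Psmc6, Psmg3 and Psmb9 (1 colour per probe set; points, arrays 1 to 3; bars, mean and SD, n = 3; lines join the group means; dotted line, the minimum of 4). In Psmf1 and Psmc6 the brightest probe set is level while dimmer ones rise, in Psmg3 the bright one falls, and Psmb9 drops below the minimum.

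The other activators were not called. Psme3, whose product activates the core particle in the nucleus, had 6.73, 6.72 and 6.88 in Dcr WT and 6.46, 6.66 and 6.59 in Dcr KO, without overlap (log2 difference -0.21, adjusted p = 0.1999 from limma). Its probe sets again disagreed. Those above the minimum differed by 0.01 and -0.49, the second without overlap (limma over probe sets, adjusted p = 0.106). Psme1, an interferon-induced activator subunit, had 10.37, 10.54 and 10.40 in Dcr WT and 10.50, 10.49 and 10.27 in Dcr KO, a difference of -0.02. Psme4 differed by -0.10.

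The immunoproteasome subunits Psmb8, Psmb9 and Psmb10 replace Psmb5, Psmb6 and Psmb7 in cells exposed to interferon. Psmb8 and Psmb10 were tested and not called by limma (0 at p under 0.05 before adjustment), and Psmb9 lay under the minimum over all arrays. Psmb9 had log2 levels of 3.99 to 4.03 in Dcr WT and 3.53, 3.40 and 2.72 in Dcr KO, so that all Dcr KO values were lower, by 0.79 on average. Its Dcr WT values sit at the minimum, where the size of a difference is uncertain. It passed in the settings that let it be tested, with no minimum (adjusted p = 0.0490 from limma) and with the minimum set on the Dcr WT arrays alone (adjusted p = 0.0406), though the second admits it through the group where it is high. Psmb10 had 8.34, 8.67 and 8.56 in Dcr WT and 8.39, 8.33 and 8.10 in Dcr KO (log2 difference -0.25, adjusted p = 0.220 from limma). Psmb8 had 4.68, 4.96 and 4.74 in Dcr WT and 4.84, 4.73 and 4.13 in Dcr KO (log2 difference -0.22, adjusted p = 0.451 from limma). The Psmb8 value averages a bright probe set and one under the minimum. The bright one had 6.52, 6.77 and 6.49 in Dcr WT and 6.45, 6.53 and 5.71 in Dcr KO (difference -0.36, limma over probe sets, adjusted p = 0.345). Dcr KO replicate 3 was the lowest array for all 3 genes. Psmb11, the thymus form, lay at or below 1.80 on all 6 arrays, far under the minimum.

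Genes that work with the immunoproteasome in antigen presentation did not move one way. Of the 12 on the list, 8 were tested, 1 was higher, 1 was lower and 6 were not called (6.91% of all genes tested were called higher and 6.42% lower). Before adjustment 2 were higher and 2 lower at p under 0.05, against 14.7% and 17.3% of all genes. Irf1, an interferon-induced transcription factor known to drive immunoproteasome genes, was called lower and fell from 8.93, 9.06 and 8.75 to 8.48, 8.41 and 8.05 (log2 difference -0.60, adjusted p = 0.0346 from limma). Erap1, the aminopeptidase that trims peptides in the endoplasmic reticulum, rose from 5.87, 6.24 and 5.98 to 6.89, 6.94 and 6.55 (log2 difference 0.77, adjusted p = 0.0184). The median of the 8 was 0.24. The peptide transporter genes Tap1 and Tap2 lay under the minimum, with log2 means from 2.25 to 3.84.

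Psmc3ip was the lower gene with the smallest adjusted p. Its product works with the meiotic recombinases and takes its name from binding the ATPase subunit Psmc3. It had 8.53, 8.64 and 8.90 in Dcr WT and 8.15, 8.25 and 7.97 in Dcr KO, which leaves 67.7% (log2 difference -0.56, adjusted p = 0.0314 from limma, standard error 0.13). Both probe sets gave groups without overlap, with differences of -0.59 and -0.53, and neither passed on its own (limma over probe sets, adjusted p = 0.0542 and 0.101). Left out in turn, every array but Dcr WT replicate 1 cost Psmc3ip its call (highest adjusted p = 0.0855). Psmc3 itself differed by 0.08. Psme3ip1, the other gene found by name alone, differed by -0.13 (adjusted p = 0.375 from limma).

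Of 34 genes that work with the proteasome from outside the name rule, 25 were on the array with a symbol of their own and were tested, and the other 9 were not analysed here. Of the 25, 1 was higher and none was lower by limma. Before adjustment 4 were higher and 2 lower at p under 0.05, against 14.7% and 17.3% of all genes, and their median difference was 0.04. The higher gene was Ufd1, a cofactor of the segregase Vcp that delivers ubiquitinated proteins, which rose from 8.59, 8.59 and 8.54 to 8.96, 8.99 and 9.09 (log2 difference 0.44, adjusted p = 0.0237 from limma). Vcp itself differed by -0.02. Nfe2l1 and Nfe2l2 encode the transcription factors known to raise proteasome genes together when the protease is inhibited or under oxidative stress. Nfe2l1 differed by -0.22 and Nfe2l2 by 0.29 (adjusted p = 0.427 and 0.128 from limma). The core chaperone Pomp differed by -0.16 and the lid subunit Sem1 by -0.25, and neither passed.

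Those factors are known to bind the antioxidant response element, and its core was searched in promoters as TGACNNNGC (N is any base) on both strands. Promoter sequences of 300 bases, 250 before and 50 after the start, were taken from RefSeq (GRCm38.p6) and were matched by symbol for 39 of the 47 genes of the complex. Of their 41 promoters, 6 held the core, or 14.6%, against 12.4% of the 32851 promoters in the table, so these letters were about as common in the proteasome genes as elsewhere. The windows are shown because they include Psmc6 and the catalytic subunits Psmb5 and Psmb6, and are written along the gene's strand with the match in capitals. They lie at chr14:45329587-45329615 (Psmc6, plus strand), chr14:54618024-54618052 (Psmb5, minus strand) and chr11:70525338-70525366 (Psmb6, plus strand).
Psmc6: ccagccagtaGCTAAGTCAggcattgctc
Psmb5: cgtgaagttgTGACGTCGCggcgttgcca
Psmb6: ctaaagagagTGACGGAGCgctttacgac
Psmc6 carries the match on the opposite strand, while those of Psmb5 and Psmb6 are on the strand of the gene. The other 3 genes with a match were Psmd9, Psmd12 and Psme4, with log2 differences of -0.12, -0.13 and -0.10. A match of letters is not a measured binding site.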

How the data were processed

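RNA from mESCs was hybridised to Affymetrix arrays, 3 for Dcr WT and 3 for Dcr KO. As deposited, each probe set has a log2 value on every array, made by the authors with GCRMA (version 2.20.0, under R 2.11.1, in the submitters' processing notes). No source used here says whether other arrays were normalized with these 6. The value table held 0 array columns without a sample.

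Probe sets with a single symbol in the platform annotation (34945 of 45037) were averaged per gene on the log2 scale. Probe sets with several symbols (932) or none here (9160) were left out. Of the 103 probe sets of the proteasome genes, 25 had a mean under 4 and 9 and 5 carry the suffixes (_x and _s) that mark probes shared between transcripts, among them a probe set each of Psmc6, Psmf1 and Psmc3ip, so averages can understate a difference or mix in other genes. The 8782 genes averaging 4 or more over all 6 arrays entered limma 3.58.1 under R 4.3.3 (lmFit, then eBayes). Benjamini-Hochberg adjustment ran over all of these genes, and calls were made at 0.05. Intervals are 95% intervals from the same fit. The number of arrays limits the precision. The fit was tested on simulated data with added changes. It recovered 1.1% of changes of 1.2-fold, 39.5% of 1.5-fold, 76.3% of 2-fold and 96.8% of 4-fold. A gene that was not called may therefore still have changed by a small amount. Alternatives varied the probe set rule, the minimum, the normalization, the eBayes trend, the replicate block and the arrays included.

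The members, roles, gene lists and tests were chosen with earlier results of these data known. Values per array are given for members that passed, the 12 with the smallest adjusted p, the immunoproteasome genes and a few others chosen after their values were seen, namely Psma2, Psma8, Psmb5, Psmd1 and Psme1. From the lists of partner and antigen presentation genes, those that passed were named, and Pomp, Sem1, Vcp, Nfe2l1, Nfe2l2, Tap1 and Tap2 were added for their roles. The marker lists were Pou5f1, Nanog, Sox2, Zfp42, Esrrb, Tdgf1, Dppa5a and Utf1 for stem cells, Col1a1, Col1a2, Col3a1, Thy1, Pdgfra, Pdgfrb, Postn and Lum for fibroblasts, and Ptprc, Cd74, Cd68, Cd3e, Lyz2 and Itgam for immune cells. Tables and plots were made with Python 3.11.15, pandas 2.3.3 and matplotlib 3.10.9.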

Additional observations from a re-analysis of the deposited data

How the results depend on the processing

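Of the 32 subunits of the alpha ring, beta ring, base and lid only Psmc6 was called in any of the 16 alternatives. It was called higher with a minimum of 6 (adjusted p = 0.0465 from limma) and with an intensity trend in eBayes (adjusted p = 0.0297 from limma). The median difference of the members was -0.12 to -0.07 throughout. The count of members called higher, 1 as reported, was 0 with the brightest probe set, 0 with no minimum, 2 with the intensity trend and 0 with any single array left out. With a minimum of 6 it stayed at 1, but the gene was Psmc6, because Psmf1 lay under that minimum and was not tested. The count called lower, 2 as reported, was 3 with no minimum and 3 with the minimum set on the Dcr WT arrays, both of which admit Psmb9, 1 with the brightest probe set, 1 with a minimum of 6, which leaves fewer genes tested, and 0 to 2 with single arrays left out. All genes called, 1171 as reported, ranged from 357 to 783 with single arrays left out. With the replicate number as a block 0 members were called higher and 0 lower, and 597 genes were called in all. The deviations of arrays with the same number correlated at -0.22, -0.02 and 0.03 over genes, so the numbers were not treated as pairs, and no array correlated best with its own number. Averaging only the probe sets that reach 4, an alternative chosen after seeing the data, gave 1 higher and 2 lower, with Psmg3 at -1.26 (adjusted p = 0.0113 from limma). Except where stated, the cause of these changes was not tested.

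Signs turned with the brightest probe set for Psmb1 (-0.12), Psmc1 (0.10), Psmc2 (0.067), Psmc6 (-0.05), Psmd2 (0.063), Psmd6 (-0.07), Psme3 (0.0067), Psmf1 (-0.08), with the median of the probe sets for Psmc2 (0.017), and with only the probe sets that reach 4 for Psmc1 (0.10), Psmc2 (0.042), Psmd2 (0.063). Apart from Psmf1, these genes were called neither as reported nor there. Uncalled genes near 0 also changed sign when single arrays were left out, with values for Psma1 from -0.051 to 0.046, Psma2 from -0.12 to 0.013, Psma8 from -0.053 to 0.28, Psmb1 from -0.038 to 0.13 and Psmb4 from -0.024 to 0.11. Values ran for Psmb5 from -0.15 to 0.015, Psmb7 from -0.0067 to 0.13, Psmc1 from -0.042 to 0.038, Psmd11 from -0.084 to 0.005 and Psmd2 from -0.078 to 0.0067. Values ran for Psmd8 from -0.31 to 0.052, Psme1 from -0.057 to 0.058 and Psme4 from -0.18 to 0.034.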
